A study of Mus musculus with 6 samples.

Results

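Tubular injury markers are genes whose transcripts or proteins rise in kidney tubule cells after ischemic or toxic damage, and the set described here holds 10 of them: LCN2, HAVCR1, CLU, SPP1, VCAM1, IGFBP7, SOX9, CD44, PROM1 and FABP1. The members were chosen by name, and 9 of the 10 were found among the 39234 genes of the deposited table. FABP1 was not analysed here. Of the 9 genes, 8 passed the filter on low counts and were tested, and PROM1 did not pass it. The RNA came from 3 control and 3 USAG-1-overexpressing cultures of HK-2, an immortalized line from human proximal tubule. The labels give genotype WT and no hypoxia or other stress for either group, and they name the controls only as Cont, without saying whether these received an empty vector. According to the methods, overexpression in cells was done by transient transfection of expression plasmids, and the identity of the cells was not authenticated by STR typing. The gene identifiers in the table are human, although mouse is given as the organism in the labels.

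Injured tubule cells lose parts of their mature program and switch on genes that are low in the resting kidney. Some of these genes encode secreted proteins that appear in urine or plasma and serve as injury biomarkers, such as NGAL from LCN2, clusterin from CLU, osteopontin from SPP1 and IGFBP7. Others encode proteins of the cell surface, such as KIM-1 from HAVCR1, the adhesion molecule VCAM1, the hyaluronan receptor CD44 and prominin-1 from PROM1. SOX9 is a transcription factor of regenerating tubule cells, and FABP1 is a cytosolic carrier of fatty acids. KIM-1 and NGAL are the injury proteins that the study measured in mouse kidneys. After ischemia and reperfusion, it reported both as lower in USAG-1 knockout kidneys and as higher in kidneys with tubular USAG-1 overexpression. Those were protein levels in injured tissue, whereas RNA of cultured cells was read here. The question here is how the transcripts of KIM-1, NGAL and the other markers differed when USAG-1 was overexpressed in cultured tubule cells.

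Between 41236194 and 48699471 reads were counted on genes per library, so that 3 counts, the limit that a count of 0 allows, correspond to 0.0607 to 0.0718 counts per 1000000 counted reads (CPM). Levels are given in CPM after scaling by edgeR's TMM method, and such limits cover counting error only. SOSTDC1 (ENSG00000171243), which encodes USAG-1, rose from 1.64 ± 0.243 to 101 ± 10.6 CPM (SD, n = 3 each). Control replicate 3 stood apart from the other libraries, with a score of -54.3 on the second principal component against 25.2 and 28.2 for control replicates 2 and 1. A second difference between the groups concerned T and NK cell markers. All 17 of these markers passed the test and were lower with USAG-1 overexpression, none was at 0 in every library, and their summed level was 106 to 128 CPM in control libraries and 8.97 to 14.1 CPM in USAG-1-overexpressing libraries. The 5 B cell markers summed to 2.53 to 4.07 CPM in control and 1.87 to 3.70 CPM in USAG-1-overexpressing libraries, and none was called. The myeloid markers summed to 64.3 to 123 CPM in control and 50.0 to 86.9 CPM in USAG-1-overexpressing libraries. Where 6.91% of all genes tested were called lower, 2 of the 10 tested myeloid markers were lower, ITGAM and LYZ. This count was 3 without control replicate 3, 2 without control replicate 2 and 1 without any other library. Mitochondrially encoded genes took at least 4.80% of the counts in each control library and at most 1.55% in each USAG-1-overexpressing library. When they were left out, LCN2, CLU and SPP1 stayed called at -1.06, -0.72 and 0.44 on the log2 scale, and the part of the T and NK cell markers in these results was not tested. Nothing in the labels says that the 3 cultures of a group were set up independently, so p-values measure only the spread between these libraries.

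The label of proximal tubular epithelial cells was checked against markers. Of 13 genes of the mature proximal tubule that were in the table, 6 were tested. GGT1, a brush border enzyme, rose from 104 to 153 CPM (log2 fold change 0.55, edgeR adjusted p = 0.0208), a call lost without USAG-1 overexpression replicate 1 or 3. MIOX, the inositol oxygenase of the tubule, had 25.2 and 21.6 CPM (edgeR adjusted p = 0.103). LRP2, which encodes the endocytic receptor megalin, and ACSM2A had no count in any library, and AQP1, the water channel, had 0.0895 and 0.029 CPM.

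In USAG-1-overexpressing cells the injury markers did not move together. SPP1 rose, CLU and LCN2 fell, and HAVCR1 differed little. Of the 8 markers tested, 3 were called with a threshold of 0.05 on the adjusted p, 1 higher and 2 lower. Here and below, the p is that of edgeR's quasi-likelihood F test after Benjamini-Hochberg correction over 18188 genes, and SE is the standard error of the log2 fold change. Among all genes tested 15.9% were called, 8.95% higher and 6.91% lower. The groups did not overlap for 5 of the 8 markers, where the share among all genes tested was 37.6%. The median log2 fold change of the 8 markers was -0.18, beside -0.02 over all genes tested. Because RNA was taken from whole cultures, fewer cells expressing a gene and less RNA per cell cannot be told apart.

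**Figure D1:**
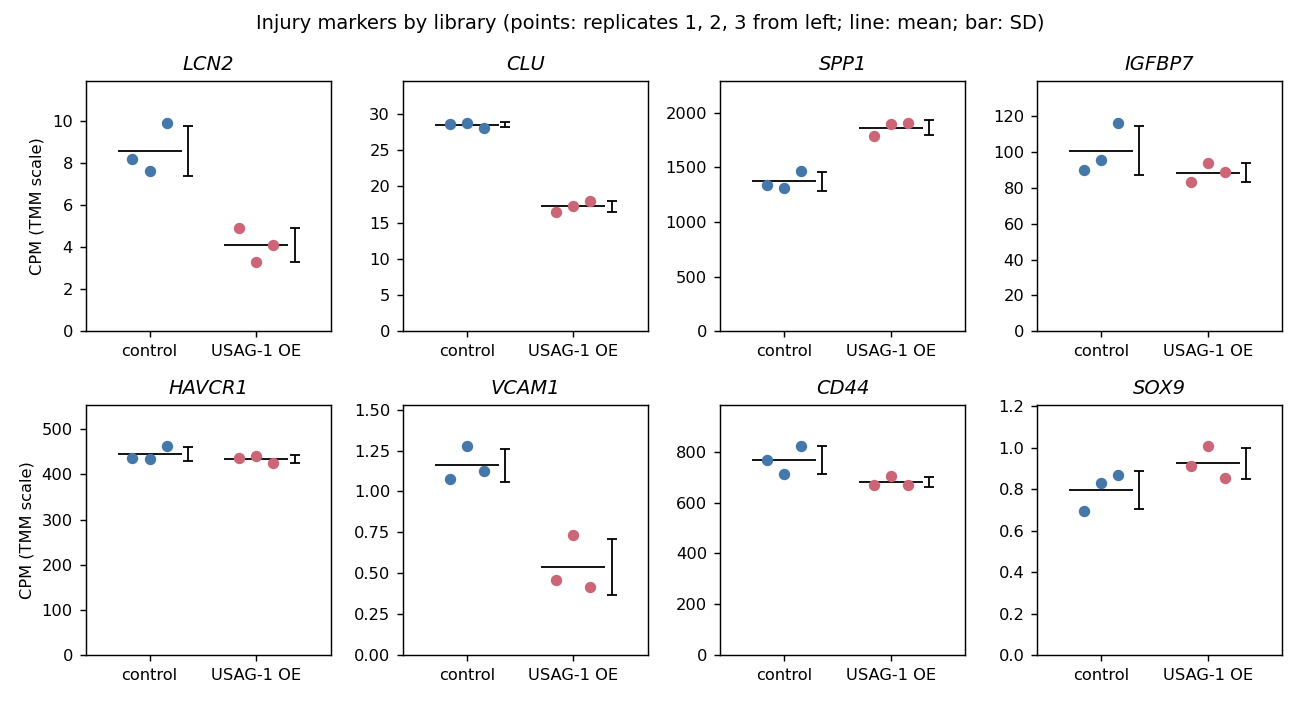
Level of each tested injury marker in CPM on the TMM scale (vertical axes from 0) in control and USAG-1-overexpressing (USAG-1 OE) HK-2 cells. Points are replicates 1, 2 and 3 from left to right, lines are group means and bars are SD (n = 3). LCN2, CLU, VCAM1 and CD44 were lower and SPP1 was higher in every USAG-1-overexpressing library, and the groups overlapped for IGFBP7, HAVCR1 and SOX9.

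**Figure D2:**
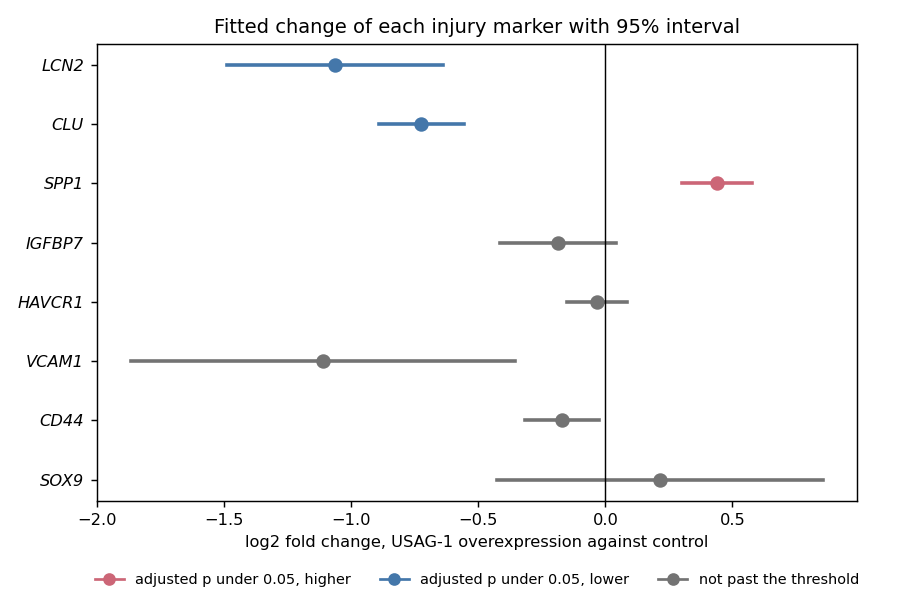
Fitted log2 fold change of each tested injury marker, USAG-1 overexpression against control, with its 95% interval (edgeR, 3 libraries per group). Colour gives the call at an adjusted p under 0.05: SPP1 was higher at 0.44, LCN2 and CLU were lower at -1.06 and -0.72, and VCAM1 at -1.11 had the lowest estimate without passing the threshold.

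Among the secreted markers, LCN2 had the lowest called fold change. LCN2 (ENSG00000148346; hg38 chromosome 9, 128149071 to 128153453, plus strand) encodes NGAL, a small protein that binds iron-carrying siderophores. Its level was 8.18, 7.65 and 9.94 CPM in control replicates 1 to 3 and 4.90, 3.30 and 4.12 CPM in USAG-1 overexpression replicates 1 to 3. The highest USAG-1-overexpressing library thus lay below the lowest control library. LCN2 fell by 52.2% (log2 fold change -1.06, SE 0.19, edgeR adjusted p = 0.00763), with a 95% interval of -1.49 to -0.64 on the log2 scale. These levels rest on 144 to 424 counts per library. The libraries spread more than counting alone would give: the coefficient of variation was 13.9% in control and 19.5% in USAG-1-overexpressing cells, where counting error is 5.12% and 7.41%. LCN2 is also made by neutrophils. The summed levels of the myeloid markers overlapped between the groups. Of the 10 tested, 2 were called, both lower, and 0 higher. These were ITGAM (4.32 CPM in control and 1.88 CPM in USAG-1-overexpressing cells) and LYZ (27.5 and 16.5 CPM). LYZ lost its call in 7 of 14 alternatives. Among the myeloid markers not called, S100A9 had 23.8 and 23.2 CPM and S100A8 9.25 and 9.45 CPM in the same order. S100A8 varied widely within groups, with 120, 95 and 980 counts in control and 102, 707 and 430 counts in USAG-1-overexpressing libraries. S100A8 and S100A9 were named after their values were seen. The part of myeloid cells in the LCN2 result was not tested.

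Of the 8 markers tested, CLU had the smallest spread among the control libraries. CLU (ENSG00000120885; hg38 chromosome 8, 27596917 to 27614700, minus strand) encodes clusterin, a secreted chaperone. It had 28.6, 28.8 and 28.1 CPM in the control libraries. In the USAG-1-overexpressing libraries it had 16.5, 17.3 and 18.0 CPM. No library came near the other group, and CLU fell by 39.5% (log2 fold change -0.72, SE 0.07, edgeR adjusted p = 9.26e-04). In control cells the coefficient of variation was 1.22%, where counting error is 2.80%. The microRNA gene MIR6843 lies within its span on the same strand and had at most 1 count in any library.

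SPP1 was the marker that rose. SPP1 (ENSG00000118785; hg38 chromosome 4, 87975667 to 87983529, plus strand) encodes osteopontin, a secreted phosphoprotein that binds integrins and CD44. Control libraries held 1340, 1309 and 1471 CPM and USAG-1-overexpressing libraries 1786, 1893 and 1909 CPM. Each USAG-1-overexpressing library was above each control library, also with control replicate 3, the highest of its group. The rise was 35.6% (log2 fold change 0.44, SE 0.06, edgeR adjusted p = 0.00295), with a 95% interval of 0.30 to 0.58 on the log2 scale. On average SPP1 took 0.136% of all counts in control libraries and 0.187% in USAG-1-overexpressing libraries. An unnamed gene on the other strand (ENSG00000286618) overlaps SPP1 and had 2 to 18 counts per library.

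IGFBP7 did not pass the test. IGFBP7 (ENSG00000163453; hg38 chromosome 4, 57030773 to 57110385, minus strand) encodes a secreted protein that binds insulin-like growth factors and is read in urine as a marker of tubular stress. It had 90.2, 95.7 and 116 CPM in control cells and 83.2, 93.7 and 88.8 CPM in USAG-1-overexpressing cells, so the groups overlapped. The log2 fold change was -0.19 (SE 0.10, edgeR adjusted p = 0.252), and the 95% interval of the fold ran from 0.750 to 1.03. Without control replicate 3 the log2 fold change was -0.06. IGFBP7 overlaps POLR2B, which lies on the other strand and had 6026 to 7359 counts, so reads at the shared end are uncertain unless strand was used in counting. TIMP2, which is paired with IGFBP7 in urinary tests of tubular stress, rose from 240 to 359 CPM (log2 fold change 0.58, SE 0.07, edgeR adjusted p = 0.0021).

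Among the markers of the cell surface, HAVCR1 had the smallest difference of the 8 markers tested. HAVCR1 (ENSG00000113249; hg38 chromosome 5, 157026742 to 157059116, minus strand) encodes KIM-1, a receptor for phosphatidylserine through which injured tubule cells take up dead cells. It had 436.7, 435.0 and 462 CPM in control libraries and 437.1, 442 and 425 CPM in USAG-1-overexpressing libraries. Apart from control replicate 3, all libraries lay between 425 and 442 CPM. The log2 fold change was -0.03 (SE 0.05, edgeR adjusted p = 0.718). With 18248 to 21486 counts per library the error was small, and the 95% interval of the fold ran from 0.900 to 1.06. Left out of the fit, control replicate 3 turned the sign of this small value (0.0017).

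VCAM1 and CD44 were lower in each USAG-1-overexpressing library without passing the test. VCAM1 (ENSG00000162692; hg38 chromosome 1, 100719742 to 100739045, plus strand) encodes an adhesion molecule that binds leukocytes through the integrin of ITGA4. It had 45, 63 and 48 counts in control libraries and 21, 32 and 18 counts in USAG-1-overexpressing libraries. In CPM this was 1.16 ± 0.104 in control and 0.535 ± 0.172 in USAG-1-overexpressing cells (SD, n = 3 each). At this depth the log2 fold change of -1.11 had an SE of 0.33 and missed the threshold (edgeR adjusted p = 0.055). It passed with DESeq2's Wald test (adjusted p = 0.0422), with limma-voom (adjusted p = 0.0456) and when at least 10 counts were asked for in every library (adjusted p = 0.0309). Over the 14 alternatives the adjusted p ranged from 0.0309 to 0.164.

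CD44 (ENSG00000026508; hg38 chromosome 11, 35138882 to 35232402, plus strand) encodes the receptor for hyaluronan and osteopontin. It had 765, 712 and 821 CPM in control libraries and 671, 703 and 671 CPM in USAG-1-overexpressing libraries. The groups did not overlap, but control replicate 2 and USAG-1 overexpression replicate 2 lay close together. The log2 fold change was -0.17 (SE 0.06, edgeR adjusted p = 0.112), and its 95% interval, which takes no account of the number of genes tested, was -0.32 to -0.02. CD44 is also expressed by T cells, whose 17 markers summed to at most 128 CPM in any library, and their part in the CD44 difference was not tested. CD44-AS1, CD44-DT and ENSG00000251194 overlap CD44 and had at most 51 counts in any library.

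PROM1 (ENSG00000007062; hg38 chromosome 4, 15963076 to 16084023, minus strand) encodes prominin-1, a membrane protein of progenitor-like tubule cells. It had 3 counts in control replicate 3, 4 counts in USAG-1 overexpression replicate 1 and none in the other libraries. Its level was thus at or near the limit that a count of 0 allows, and a difference was not detectable at this depth. PROM1 overlaps FGFBP2, which spans 15960245 to 15969309 on the same strand. FGFBP2, a gene of cytotoxic lymphocytes that is named here for this overlap, had 14 to 70 counts per library and was lower with USAG-1 overexpression (1.05 against 0.363 CPM, edgeR adjusted p = 0.0305).

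The transcription factor of the set was measured at a low level. SOX9 (ENSG00000125398; hg38 chromosome 17, 72121020 to 72126416, plus strand) had 29, 41 and 37 counts in control libraries and 42, 44 and 37 counts in USAG-1-overexpressing libraries. Control libraries had 0.694, 0.830 and 0.867 CPM and USAG-1-overexpressing libraries 0.914, 1.01 and 0.857 CPM, so the groups overlapped. The log2 fold change was 0.21 (SE 0.28, edgeR adjusted p = 0.656). The 95% interval of the fold, 0.745 to 1.81, reached higher than that of any other tested marker. SOX9-AS1, which spans SOX9 on the other strand, had no counts.

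Ratios of counts within a library do not depend on scaling, and they showed the unequal change of the markers directly. For each count of CLU there were 46.8, 45.5 and 52.3 counts of SPP1 in control libraries and 108, 109 and 106 in USAG-1-overexpressing libraries. The mean ratio of SPP1 to CLU was thus 2.24 times as high with USAG-1 overexpression. With HAVCR1 as the denominator, SPP1 had a ratio of 3.09 ± 0.089 in control and 4.29 ± 0.205 in USAG-1-overexpressing cells (SD, n = 3 each). The ratio of CLU to HAVCR1 was 0.0642 ± 0.0029 and 0.0398 ± 0.00242, and that of LCN2 to HAVCR1 was 0.0193 ± 0.00201 and 0.00946 ± 0.00188 in the same order. The groups did not overlap in any of these ratios. This adds no support to the calls, because the ratios restate the levels of the same genes. SPP1 and CLU already had groups that did not overlap, in opposite directions, so their ratio could not overlap either. Such a ratio shows unequal change of 2 genes and not that HAVCR1 stayed the same.

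The control libraries differed among themselves in the markers. In 6 of the 8 tested markers control replicate 3 had the highest level of the 3 control libraries on the TMM scale, namely LCN2, HAVCR1, SPP1, IGFBP7, SOX9 and CD44. With library sizes alone this held for 4 of them, LCN2, SPP1, IGFBP7 and CD44. Over all genes tested, control replicate 3 was the highest control in 40.3% on the TMM scale and in 31.2% with library sizes alone. Without this library the log2 fold change was -0.94 for LCN2, -0.73 for CLU and 0.50 for SPP1, each still past the threshold (edgeR adjusted p = 0.00585, 1.62e-04 and 3.17e-05). LCN2, CLU and SPP1 kept their direction and their call in all 14 alternatives.

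**Figure D3:**
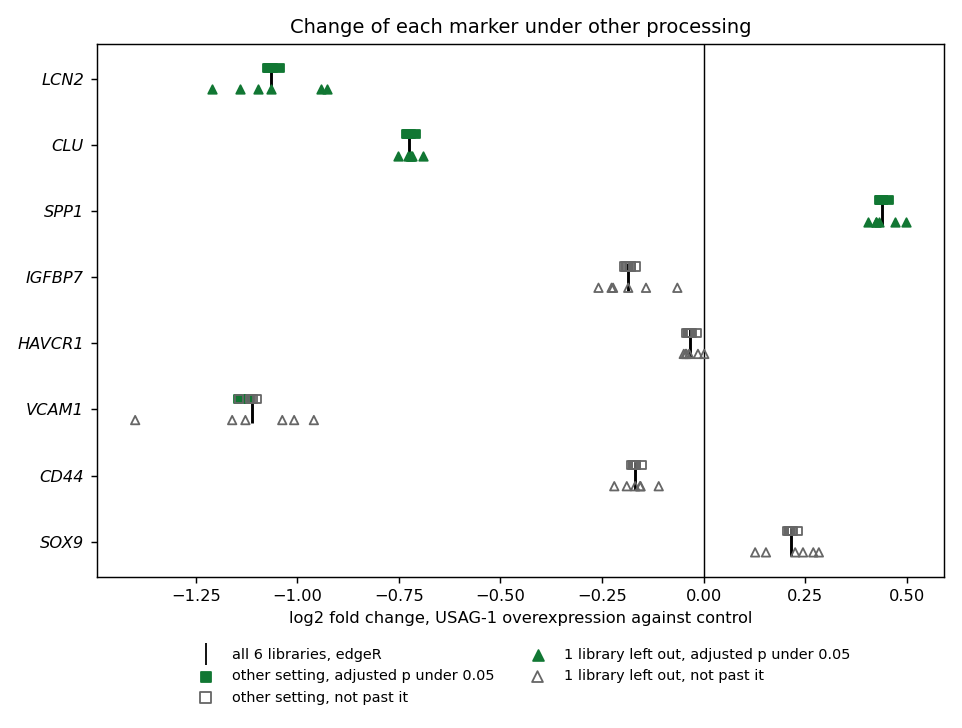
Log2 fold change of each tested injury marker with all 6 libraries (vertical ticks), under 8 other settings of the scaling, test, filter or block (squares) and with 1 library left out (triangles). Filled green symbols have an adjusted p under 0.05. LCN2, CLU and SPP1 were filled throughout, VCAM1 under 3 settings, and the triangles of LCN2 ran from -1.21 to -0.93.

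Genes around the markers were read from lists typed from general knowledge. Of 11 tested genes for binding partners of the marker proteins, 2 were called, both lower, which is near the share of all genes. With 1 library left out, the number of lower genes ran from 0 (without control replicate 1 or USAG-1 overexpression replicate 2 or 3) to 3 (without control replicate 3). ITGA4, an integrin subunit that binds VCAM1 and osteopontin, had 8.35, 6.94 and 7.10 CPM in control and 5.03, 3.00 and 3.20 CPM in USAG-1-overexpressing libraries. Its log2 fold change was -0.995 (SE 0.22, edgeR adjusted p = 0.0189), a call that was lost in 3 of 14 alternatives, each without 1 library. ITGA4 is also a gene of T cells, and the part of the T and NK cell markers in its fall was not tested. ITGB3, the partner of ITGAV in an osteopontin receptor, fell by 0.23 on the log2 scale (edgeR adjusted p = 0.0312) and lost the call in 7 of 14 alternatives. ITGAV itself had 399 and 430 CPM (edgeR adjusted p = 0.239), and HAS3, a hyaluronan synthase, had 379 and 381 CPM, while HAS1 and HAS2 had no counts.

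Among 14 tested transcription factors and regulators known to act on marker genes, 4 were higher and 1 was lower. The called share was 35.7%, beside 15.9% of all genes tested. With 1 library left out, 2 or 3 were higher, except without control replicate 3, where 7 were higher. With the replicate block 2 were higher. TEAD1, the DNA-binding partner of YAP, rose by 0.48 on the log2 scale (edgeR adjusted p = 0.00392). YAP1 and PPARA, a nuclear receptor for fatty acids that acts on FABP1, were also among those that rose. NFKB1, a subunit of the NF-kB factor that acts on LCN2 and VCAM1, was the one that fell, from 111 to 84.5 CPM (edgeR adjusted p = 0.00526). The other NF-kB genes of the list were not called. In control and USAG-1-overexpressing cells, RELA had 80.9 and 90.6 CPM and RELB 27.7 and 22.3 CPM. Every USAG-1-overexpressing library was below every control library for RELB, which just missed the threshold (edgeR adjusted p = 0.0557). NFKB2 had 146 and 139 CPM and NFKBIA 96.3 and 95.6 CPM. YAP1, PPARA and the NF-kB genes were named after their values were seen.

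Of 15 tested acute stress genes, 6 were higher and 2 lower, and the median log2 fold change was 0.16. The called share was 53.3%, beside 15.9% of all genes tested. Leaving out 1 library at a time, 5 to 7 were higher, and 1 was lower without any one of the USAG-1-overexpressing libraries. GDF15, a secreted stress cytokine, had 37.2, 33.9 and 43.9 CPM in control and 79.4, 78.6 and 84.6 CPM in USAG-1-overexpressing libraries (log2 fold change 1.08, SE 0.10, edgeR adjusted p = 5.67e-04). CCN2, a matricellular protein and target of YAP, rose from 101 to 222 CPM (log2 fold change 1.15, edgeR adjusted p = 8.71e-04). In both genes every USAG-1-overexpressing library was above every control library. TNFRSF12A, the receptor of TWEAK, was among the lower genes (-0.39 on the log2 scale) and was named after its value was seen.

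Genes of dedifferentiated tubule cells went both ways, with 3 of 20 higher, 4 lower and a median log2 fold change of 0.02. The called share was 35%, beside 15.9% of all genes tested. MMP7, a matrix metalloproteinase, fell from 43.4 to 28.8 CPM (log2 fold change -0.60, edgeR adjusted p = 0.00606). C3, the complement component, rose from 400.1 to 487 CPM (log2 fold change 0.28, edgeR adjusted p = 0.0113), a call lost without USAG-1 overexpression replicate 2 or 3. The others, named after their values were seen, were ANXA1 and ANXA3 among the higher genes and CCL2, CDH6 and ITGB6 among the lower ones. VIM, the vimentin gene that marks dedifferentiation, had 1959 and 1953 CPM (edgeR adjusted p = 0.974). With 1 library left out, the number of higher genes in this list ran from 0 (without USAG-1 overexpression replicate 2 or 3) to 10 (without control replicate 3). It was 1 without control replicate 2. The number of lower genes was 4 without control replicate 3, and 1 or 2 without any other library.

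Of 8 tested genes for other urinary or plasma biomarkers, 2 were called, both higher, TIMP2 as given above and IL18. The called share was 25%, beside 15.9% of all genes tested. IL18, a cytokine of injured proximal tubule, had 16.2, 16.1 and 16.1 CPM in control libraries and 25.3, 25.5 and 26.7 CPM in USAG-1-overexpressing libraries. The log2 fold change was 0.68 (SE 0.07, edgeR adjusted p = 0.00113). CST3, which encodes cystatin C, had 77.9 and 71.5 CPM (edgeR adjusted p = 0.498). Both biomarker genes that rose were called in all 14 alternatives.

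**Figure D4:**
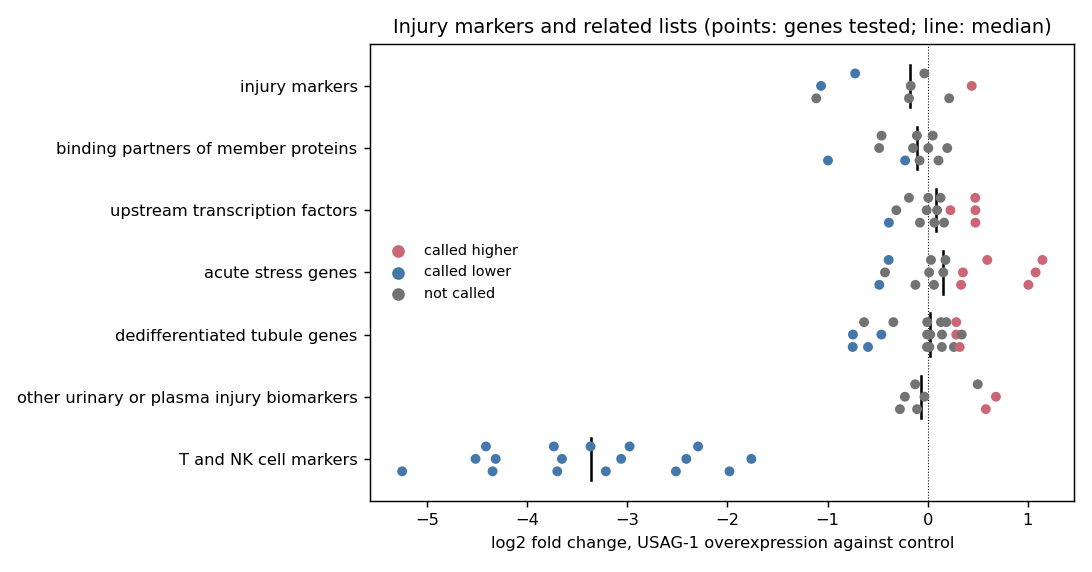
Log2 fold change of each tested gene in the injury marker set and in 6 lists (rows), USAG-1 overexpression against control. Points are genes coloured by call, and black lines are medians: -0.18 for the injury markers, 0.16 for acute stress genes and -3.37 for T and NK cell markers, all 17 of which were lower.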

How the data were processed

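The authors deposited whole-number read counts per gene for the 6 libraries in a table that is named for FPKM but holds counts. The submitters' processing notes name hg38, cutadapt 1.9 and FastQC. The aligner and the counting are not given in the sources used here, and the libraries were strand-specific per the labels. From these counts, genes passing filterByExpr were normalized by TMM, and USAG-1 overexpression was compared with control by the quasi-likelihood F test of edgeR 4.0.16 in R 4.3.3, with Benjamini-Hochberg adjustment over 18188 genes, which held 99.9% of the counts. The threshold was 0.05 on the adjusted p, at any fold. DESeq2 (1.42.0), the tool given in the study's methods, and limma-voom (3.58.1) were alternatives. Standard errors were derived from the F statistic (log2 fold change over its square root), and intervals use the fit's degrees of freedom. Library totals and precision stand with the results. The code was tested on simulated counts for this comparison: of 98 genes changed by 1 on the log2 scale among 17890, edgeR recovered 79.6%. No library was a copy of another of its group (chi-square per degree of freedom at least 6.87).

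The members and the 12 lists of other genes were chosen with earlier results of these data known. The text names all members, SOSTDC1, the 2 genes with the smallest p in each list, the 3 genes most like LCN2 and HAVCR1, and genes that overlap a member. Genes named beyond this rule were chosen after their values were seen. Some genes of the lists are counted but not reported here by name. The alternatives were other scalings, tests and filters, mitochondrially encoded genes left out, a replicate block and each library left out. Levels were not compared between genes, because the table gives no transcript length.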

Additional observations from a re-analysis of the deposited data

How the results depend on the processing

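The counts of injury markers were 1 higher in every one of the 14 alternatives and 2 or 3 lower, the third being VCAM1. LCN2, CLU and SPP1 were called in each. HAVCR1 turned sign without control replicate 3, and with each library left out it ranged from -0.049 to 0.0017. IGFBP7, SOX9 and CD44 stayed below the threshold throughout, with log2 fold changes of -0.26 to -0.06, 0.13 to 0.28 and -0.22 to -0.11.

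The background moved with single libraries. With 1 library left out, the number of all genes called higher ranged from 630 (without USAG-1 overexpression replicate 2) to 2985 (without control replicate 3), where the full set gave 1628, and the number called lower from 507 (without USAG-1 overexpression replicate 2) to 2106 (without control replicate 3), where it gave 1256. No scaling moved the median of all genes by over 0.1 on the log2 scale. Replicate numbers did not pair the libraries: deviations of same-numbered libraries correlated at 0.07, -0.05 and 0.04, and not every library correlated best with its own number. With the replicate block 2381 genes were called in place of 2884, and LCN2 (-1.07), CLU (-0.72) and SPP1 (0.44) stayed called. At 18 to 63 counts per library, depth limited VCAM1 and SOX9, and PROM1 could not be tested.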

Other observations

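Other markers of kidney epithelium showed changes of their own. Of 8 tested kidney epithelial markers, 2 were higher and 1 was lower with USAG-1 overexpression. The called share was 37.5%, beside 15.9% of all genes tested. With 1 library left out, the number of higher genes ran from 0 (without control replicate 2 or any one of the USAG-1-overexpressing libraries) to 5 (without control replicate 3), and it was 1 without control replicate 1. LHX1, a transcription factor of kidney development, fell from 53.1 to 32.4 CPM (log2 fold change -0.71, SE 0.09, edgeR adjusted p = 0.0019), and this held in all 14 alternatives. PAX8, which marks the kidney lineage, rose from 375 to 448 CPM (log2 fold change 0.26, edgeR adjusted p = 0.0114), a call lost in 4 of 14 alternatives, each without 1 library. The third, named after its values were seen, was CDH2, which encodes N-cadherin and rose by 0.28 on the log2 scale. CDH1, which encodes E-cadherin, was near the limit of detection at 0.0863 and 0.105 CPM.

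The fibroblast markers summed to 39.8 to 41.5 CPM in control and 55.9 to 58.0 CPM in USAG-1-overexpressing libraries, most of it from LUM, and the endothelial markers to at most 5.67 CPM in any library. LUM, the lumican gene, was the called one of 3 tested fibroblast markers and rose from 33.6 to 49.7 CPM (log2 fold change 0.57, edgeR adjusted p = 0.00114). The called share was 33.3%, which rests on LUM alone, beside 15.9% of all genes tested. PDGFRB had 0.665 and 0.507 CPM, and COL1A2 had no counts. Neither of the 2 tested endothelial markers was called, TEK with 0.211 and 0.460 CPM and PECAM1 with 3.99 and 2.62 CPM. Among the blood cell lists, MS4A1 and CD79B had the smallest p of the B cell markers at 1.14 and 0.624 CPM in control cells, and GZMB and LCK that of the T and NK cell markers. GZMB changed from 9.34 to 0.468 CPM and LCK from 8.69 to 1.52 CPM. ITGAM changed from 4.32 to 1.88 CPM and LYZ from 27.5 to 16.5 CPM, and LYZ lost its call in 7 of 14 alternatives.

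The genes whose log2 CPM was most like that of LCN2 over the 6 libraries, among 11287 genes with at least 5 CPM, were STMP1 (Pearson's r = 0.999), ETS1 (0.998) and VPS16 (0.998). For HAVCR1 they were OTUD5 (0.992), RBFA (0.991) and SDF2L1 (0.984). These values describe 6 points that share the 2 groups and their libraries, and among so many genes values this high arise readily. Correlation takes no account of the size of a change. STMP1, ETS1 and VPS16 had log2 fold changes of -0.37, -0.12 and -0.32, against -1.06 for LCN2, and ETS1 was not called (edgeR adjusted p = 0.152).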
